A study of Mus musculus with 16 samples.

Results

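The transcripts described here are those of 38 genes of the p53 response and of apoptosis, picked by gene symbol from the 18990 genes of the deposited expression table and followed through all 16 libraries. They comprise *Trp53* and its inhibitors (3 genes), growth arrest and cell cycle genes (6), stress, metabolism and repair genes (9), membrane and signalling genes (4), pro-apoptotic (6) and anti-apoptotic (3) members of the BCL2 family, death receptors with the PIDDosome (5) and the apoptosome (2). Each of the 38 was found in the table, and each passed the filter on low values that left 14028 genes for testing. The protein p53 is a transcription factor that is kept scarce by the ubiquitin ligase MDM2 and held inactive by the related MDM4, and that binds response elements of its target genes when DNA is damaged or an oncogene is active. Its targets arrest the cell cycle, adjust metabolism, aid repair or start apoptosis, and *Mdm2* is itself a target, which closes a feedback loop. In fibroblasts, introduction of the reprogramming factors is known to engage this pathway, and loss of p53 is known to raise the yield of induced pluripotent cells.

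The cells were wild-type primary mouse embryonic fibroblasts (MEFs) of strain BL6, plated at passage 1 and reprogrammed at passage 2. All groups carried the same pair of lentiviruses, tet-STEMCCA with the Oct4, Sox2, Klf4 and c-Myc transgenes (OSKM) under a doxycycline-inducible promoter and rtTA, the transactivator that doxycycline switches on, each at an MOI of 1. They differed in the pooled siRNA, given at 40 nM before induction, which was non-targeting (nt control) or directed against *Wdr5* (siWdr5), *Brca1* (siBrca1) or *Bard1* (siBard1), and in the day of collection, day 3 or day 6, giving 8 groups of 2 libraries. The reprogramming medium held 2 µg/mL doxycycline, 3 µM chiron, 0.25 µM of the TGFb inhibitor Alk5i, 50 µg/mL ascorbic acid and LIF in every group. WDR5 is a core subunit of the complexes that methylate histone H3 at lysine 4, and BRCA1 and BARD1 form a ubiquitin ligase needed for repair of DNA breaks by homologous recombination. Each library is bulk RNA of a whole culture, so cells that took up less virus or siRNA are part of it.

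Levels are given as CPM, the reads of a gene scaled to a common library size. The libraries held 11169738 to 26832534 reads, so that 3 reads corresponded to 0.115 to 0.260 CPM, far below every value given for the 38 genes. At day 3 each targeted transcript was lower in both of its own knockdown libraries than in both nt control libraries, *Wdr5* at 50.6 and 55.3 CPM against 132 and 130, *Brca1* at 37.5 and 19.4 CPM against 82.4 and 78.0, and *Bard1* at 18.0 and 20.8 CPM against 30.5 and 29.1. Replicate 2 of siBrca1 therefore had less *Brca1* left than replicate 1. Each of these transcripts also lay below both nt control libraries under the siRNAs against the other targets. *Bard1* measured 13.9 and 15.3 CPM with siWdr5 and 14.4 and 9.07 with siBrca1, less than with siBard1 itself. *Wdr5* measured 74.3 and 68.9 CPM with siBrca1. The knockdown groups were thus not depleted of their own target alone, and the part of this in comparisons between them was not tested. Fibroblast markers (7 of 7 detected) were high in every library, with summed levels of 7701 to 8696 CPM in the nt control, 13611 to 14124 CPM in siWdr5, 11520 to 12666 CPM in siBrca1 and 9608 to 11181 CPM in siBard1 at day 3. In limma (adjusted p under 0.05) 6 of 7 were higher in siWdr5 and 5 in siBrca1. In siBard1 0 were (3 at an unadjusted p under 0.05). The shares of all genes tested were 18.3%, 25.4% and 8.67%. *Col3a1* in siBrca1, at 727 and 482 CPM, lay below both nt control libraries, at 780 and 769. Macrophage and leukocyte markers summed to at most 25.7 CPM in any library (*Ptprc* was not analysed here), and endothelial markers to at most 59.6 CPM (*Tie1* was not analysed here). Summed levels of 5 epithelial markers were 44.0 to 65.8 CPM in the nt control at day 3 and 549 to 739 CPM at day 6. Of the skeletal muscle markers, *Acta1*, *Des* and *Myh3* summed to 43.3 to 54.1 CPM in the nt control at day 3. The sums were 188 to 191 CPM in siWdr5, 252 to 277 in siBrca1 and 115 to 146 in siBard1. *Acta1* and *Des* carried these higher sums. *Myh3* was lower in siBrca1, at 0.948 and 0.699 CPM against 2.77 and 1.90 in the nt control. In siWdr5 and siBard1 it overlapped with the nt control. *Myod1* and *Myog* were not analysed here. The part of these differences in the results on the 38 genes was not tested.

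The window from 250 bases before to 50 bases after each start site (RefSeq, build GRCm38.p6) was searched for the p53 response element consensus. The consensus searched for was 20 bases long with no spacer. The C and the G at the ends of both 4-base cores were kept. At most 2 mismatches were allowed at the other positions, the inner bases of the cores included. The consensus equals its own reverse complement, so both strands were covered at once. Of the 32 genes with a window, 3 (9.38%) held a match, compared with 106 of 27025 genes (0.392%) over the whole table of windows. The matches are printed below with the cores in capitals, together with that of *Cdkn1a*, the classical cell cycle target of p53, which is not among the 38 genes.
Ckap2: agaCATGtcctgaCTTGtca
Ccng1: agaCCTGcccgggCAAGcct
Gtse1: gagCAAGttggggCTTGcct
Cdkn1a: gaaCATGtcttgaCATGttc
The *Ckap2* match lies at chr8:22186003-22186022 on the minus strand, begins 203 bases before the start site and has 2 mismatches. The *Ccng1* match, at chr11:40755462-40755481 on the minus strand, begins 195 bases before the start and has 1 mismatch. The *Gtse1* match, at chr15:85859945-85859964 on the plus strand, begins 1 base before the start and has 1 mismatch. For *Cdkn1a* the match is at chr17:29090928-29090947 on the plus strand, 51 bases before the start, with 1 mismatch. A match is a description of letters and not a measured binding site, and a gene without one can carry a response element outside the window.

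In the nt control at day 3 the 38 genes covered a wide range of expression when CPM was divided by the exon length in kb of the mm10 annotation. That length counts the exon bases of all annotated transcripts of a gene, so the order depends on which transcripts are annotated. *Ccng1*, which encodes cyclin G1, was the highest at 226 and 205 CPM per kb in the libraries, followed by *Phlda3*, an inhibitor of AKT, at 144 and 149. Next in order were *Bax* at 64.9 and 69.6 and *Mcl1* at 60.9 and 58.5 CPM per kb, and these neighbours did not overlap. *Trp53* itself ranked 7th with 39.8 and 40.5 CPM per kb, next to *Sesn2* with 40.3 and 38.3, and these neighbours overlapped. The lowest were *Casp9* (2.04 and 2.47 CPM per kb), *Bcl2* (1.89 and 2.27) and *Rrm2b* (1.36 and 1.38), of which *Casp9* and *Bcl2* overlapped. Exons of *Bak1* (25.5% of its exon bases) and *Bid* (17.7%) lie opposite exons of *Ggnbp1* and *Bcl2l13*, and 12.2% of *Bax* exons are shared with *Gm45808* on the same strand. The sources used here do not say whether reads were counted by strand, so that part of the counts of these genes is uncertain.

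At day 3 the p53 and apoptosis genes moved in both directions under each knockdown, and changes stayed mostly under 2-fold. *Mdm2*, the death receptor gene *Fas* and the receptor kinase gene *Epha2* were higher in siWdr5, siBrca1 and siBard1 than in the nt control, *Tigar* was lower, and the core apoptosis genes *Bax*, *Bak1*, *Bid* and *Casp9* passed the test in none of the 3 comparisons. In siWdr5, 14 of the 38 genes passed (adjusted p under 0.05 in limma over all genes tested), 11 higher and 3 lower. That is 36.8% of them, beside 35.0% of all genes tested (18.3% higher and 16.8% lower). In siBrca1, 17 passed, 12 higher and 5 lower, or 44.7% beside 47.2% of all genes (25.4% higher and 21.8% lower). In siBard1 6 passed, 5 higher and 1 lower, or 15.8% beside 14.5% (8.67% higher and 5.87% lower). The total shares of 36.8%, 44.7% and 15.8% lie close to those of the transcriptome as a whole. By direction the calls leaned further toward higher than those of all genes tested, and the split changed with the scaling as given below. Median log2 fold changes of the 38 genes were 0.11, 0.10 and 0.13 in siWdr5, siBrca1 and siBard1, where the medians over all genes tested were −0.04, 0.00 and −0.02. A fold change above 2 in addition to the test was reached by 4 of the 38 genes in siBrca1 (beside 13.4% of all genes) and by none in siWdr5 or siBard1 (7.05% and 2.24%). The comparisons share the nt control libraries, so that their values are set side by side and their likeness is not counted as a result. In bulk RNA, fewer cells that express a gene and less of its RNA per cell cannot be told apart.

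**Figure D1:**
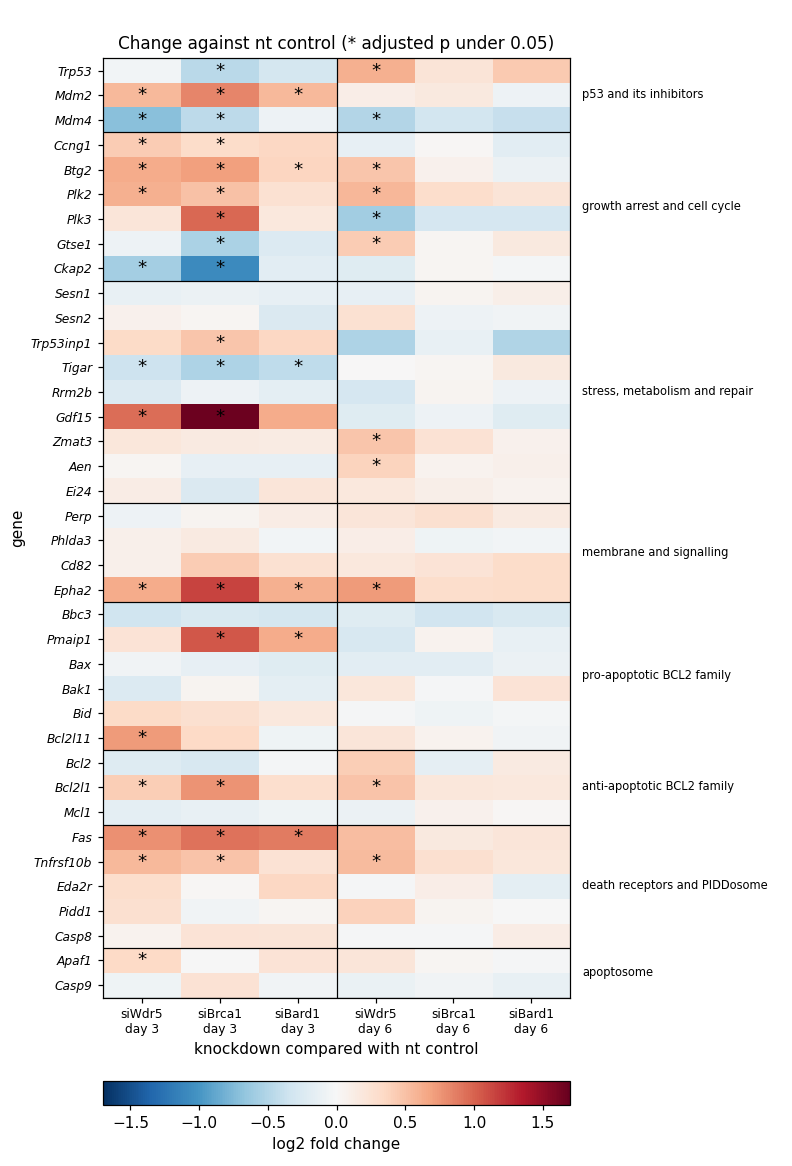
Log2 fold change of each of the 38 genes (vertical axis, grouped by role) against the nt control for the 3 knockdowns at day 3 and day 6 (horizontal axis), red higher and blue lower, with a star where limma gave an adjusted p under 0.05. Stars number 14, 17 and 6 at day 3 and 11, 0 and 0 at day 6, and the strongest colour is *Gdf15* in siBrca1 at day 3 (1.67).

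The counts at day 3 depended on single libraries. The number of genes that passed in siWdr5 was 9 without nt control replicate 1, 8 without nt control replicate 2 or without siWdr5 replicate 2, and 10 to 19 without 1 of the other libraries of day 3. In siBrca1 it was 13 without nt control replicate 2 or without siBrca1 replicate 2, and 23 without siBrca1 replicate 1. In siBard1 it was 1 without nt control replicate 1, 3 without nt control replicate 2, 4 without siBard1 replicate 2, and 13 without either siBrca1 library. Centring each library on its median gene turned the siWdr5 split to 16 higher and 2 lower, and quantile normalization turned the siBrca1 split to 10 higher and 8 lower. Of the genes that passed, 8 of 14 in siWdr5 did so under each of 18 alternative settings (*Bcl2l11*, *Btg2*, *Epha2*, *Fas*, *Mdm2*, *Mdm4*, *Plk2* and *Tnfrsf10b*). In siBrca1 this held for 12 of 17 (*Bcl2l1*, *Btg2*, *Ckap2*, *Epha2*, *Fas*, *Gdf15*, *Mdm2*, *Plk2*, *Plk3*, *Pmaip1*, *Tigar* and *Tnfrsf10b*) and in siBard1 for *Fas* alone of 6.

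Among p53 and its inhibitors, *Mdm2* rose at day 3 while *Trp53* and *Mdm4* were level or lower. *Mdm2* stood at 193 and 182 CPM in the nt control, 266 and 282 in siWdr5, 309 and 363 in siBrca1 and 270 and 279 in siBard1. All 6 knockdown libraries lay above both controls, and the log2 fold changes were 0.54 in siWdr5 (SE 0.11, adjusted p = 0.00168), 0.83 in siBrca1 (SE 0.11, adjusted p = 4.52e-05) and 0.55 in siBard1 (SE 0.11, adjusted p = 0.00524). The last of these was lost without either nt control library or without a trend in the moderation (adjusted p up to 0.0784). *Trp53* was at 161 and 164 CPM in the nt control, 151 and 163 in siWdr5, 134 and 104 in siBrca1 and 142 and 121 in siBard1. Libraries of siBrca1 and siBard1 lay below both controls and those of siWdr5 overlapped with them. *Trp53* passed the test in siBrca1 (log2 fold change −0.46, SE 0.13, adjusted p = 0.00896), and this call was lost without nt control replicate 2 or siBrca1 replicate 2 (adjusted p up to 0.0809). *Mdm4* measured 122 and 115 CPM in the nt control, 72.4 and 72.8 in siWdr5, 80.2 and 93.9 in siBrca1 and 97.4 and 128 in siBard1. On the log2 scale it fell by 0.71 in siWdr5 (SE 0.13, adjusted p = 0.00106). In siBrca1 it fell by 0.45 (SE 0.13, adjusted p = 0.0108), a call lost without nt control replicate 1 or without a trend in the moderation (adjusted p up to 0.0882 over the alternatives). The siBard1 libraries spanned the controls (log2 fold change −0.09).

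**Figure D2:**
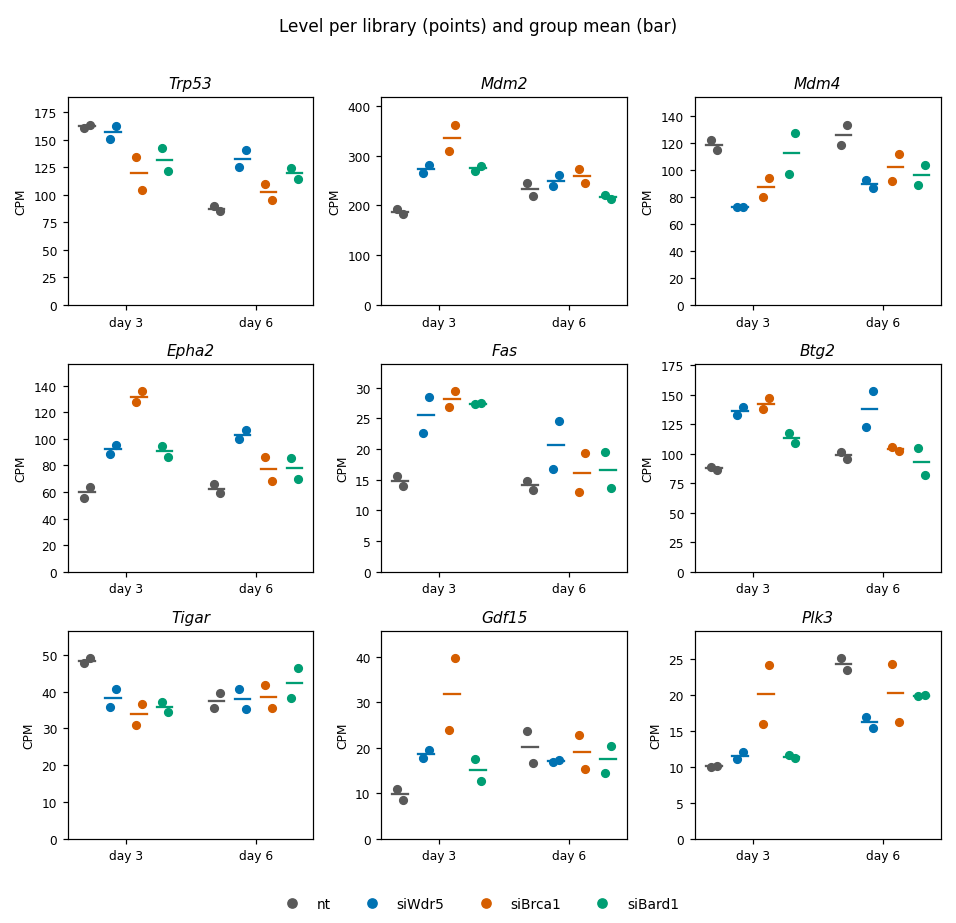
CPM (vertical axes, from 0) of 9 genes in each of the 16 libraries, as points, with the mean of the 2 libraries of a group as a bar, by day (horizontal axis) and siRNA (colour). *Mdm2*, *Epha2*, *Fas* and *Btg2* are higher in all 6 knockdown libraries of day 3 than in both nt control libraries, and *Trp53* in the nt control drops from 161 and 164 CPM at day 3 to 89.5 and 85.2 at day 6.

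Of the growth arrest and cell cycle genes, the antiproliferative *Btg2* and the stress-induced kinase gene *Plk2* rose and the mitotic *Ckap2* fell. *Btg2* stood at 88.9 and 86.4 CPM in the nt control, 133 and 139 in siWdr5, 138 and 147 in siBrca1 and 117 and 109 in siBard1 at day 3. No knockdown library overlapped with the controls, and the log2 fold changes were 0.64 in siWdr5 (SE 0.10, adjusted p = 0.000345), 0.70 in siBrca1 (SE 0.10, adjusted p = 9.16e-05) and 0.37 in siBard1 (SE 0.10, adjusted p = 0.0247). The siBard1 call was lost without any 1 of the nt control or siBard1 libraries, without a trend and with all 16 libraries in the model (adjusted p up to 0.189). *Plk2* measured 123 and 119 CPM in the nt control, 176 and 192 in siWdr5, 158 and 185 in siBrca1 and 149 and 141 in siBard1. It passed in siWdr5 (0.60, SE 0.11, adjusted p = 0.000888) and siBrca1 (0.50, SE 0.11, adjusted p = 0.00174) but not in siBard1 (0.26, adjusted p = 0.115). *Plk3*, another stress-responsive kinase gene, was at 10.0 and 10.1 CPM in the nt control and at 16 and 24.2 in siBrca1, with 11.1 to 12 CPM in the 4 libraries of siWdr5 and siBard1. Its rise in siBrca1 was 0.97 (SE 0.18, adjusted p = 0.000706), larger in replicate 2 than in replicate 1. *Ccng1*, at 795 and 719 CPM in the nt control, measured 936 and 1104 in siWdr5, 900 and 978 in siBrca1 and 958 and 966 in siBard1. The test was passed in siWdr5 (0.43, adjusted p = 0.0148), just passed by the 0.31 of siBrca1 (adjusted p = 0.0487) and missed by the 0.35 of siBard1 (adjusted p = 0.0688). The call in siWdr5 was lost with quantile normalization and without either nt control library or siWdr5 replicate 2 (adjusted p up to 0.331), while that in siBrca1 was kept in 8 of 18 alternatives.

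The genes *Ckap2*, which encodes a spindle protein, and *Gtse1*, which encodes a microtubule-binding protein that restrains p53 in G2, are expressed in dividing cells. *Ckap2* fell from 116 and 113 CPM in the nt control to 74.6 and 78.8 in siWdr5 and 69.2 and 41.9 in siBrca1, with 95.8 and 106 in siBard1. Log2 fold changes were −0.58 in siWdr5 (SE 0.17, adjusted p = 0.0180), −1.09 in siBrca1 (SE 0.17, adjusted p = 0.000195) and −0.18 in siBard1, where the test was not passed. The call in siWdr5 was lost without any 1 of the nt control or siWdr5 libraries, without a trend and with no filter (adjusted p up to 0.129). *Gtse1* measured 128 and 136 CPM in the nt control and 111 and 73.1 in siBrca1 (−0.54, SE 0.15, adjusted p = 0.00961), a call lost without nt control replicate 2 or siBrca1 replicate 2 and without a trend (adjusted p up to 0.115). Its siWdr5 libraries, at 124 and 125 CPM, lay just under the controls and did not pass. Beside these values, 10 of 10 genes of the G2 and M phases (*Mki67*, *Top2a*, *Ccnb1*, *Ccnb2*, *Cdk1*, *Bub1*, *Aurka*, *Plk1*, *Cenpe* and *Cenpf*) passed as lower in siBrca1, 9 of 10 in siWdr5 and 0 of 10 in siBard1 (limma, 2 at an unadjusted p under 0.05), beside 21.8%, 16.8% and 5.87% of all genes tested. Their summed level was 1428 to 1437 CPM in the nt control, 845 to 910 in siWdr5, 436 to 823 in siBrca1 and 1160 to 1269 in siBard1. The part of that difference in the values of *Ckap2* and *Gtse1* was not tested.

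In the group of stress, metabolism and repair genes, the secreted factor gene *Gdf15* rose and *Tigar* fell at day 3. *Sesn1*, *Sesn2*, *Rrm2b*, *Zmat3*, *Aen* and *Ei24* passed in no knockdown of that day. *Gdf15* was measured at 11 and 8.52 CPM in the nt control, 17.7 and 19.6 in siWdr5, 23.9 and 39.7 in siBrca1 and 17.6 and 12.7 in siBard1. All knockdown libraries exceeded both controls and the siBrca1 replicates differed widely. Its log2 fold change of 1.67 in siBrca1 (SE 0.22, adjusted p = 6.21e-05) was the largest of the 38 genes at day 3. In siWdr5 it was 0.95 (SE 0.22, adjusted p = 0.00539), a call lost without nt control replicate 2 or siWdr5 replicate 2 (adjusted p up to 0.0642), and in siBard1 0.63 (adjusted p = 0.0733). *Tigar*, whose product lowers the glycolytic activator fructose-2,6-bisphosphate, was at 47.9 and 49.1 CPM in the nt control, 35.7 and 40.7 in siWdr5, 31.0 and 36.6 in siBrca1 and 37.2 and 34.6 in siBard1. Every knockdown library lay below both controls. On the log2 scale *Tigar* fell by 0.35 in siWdr5 (SE 0.12, adjusted p = 0.0423). The siBrca1 libraries showed a change of −0.52 (SE 0.12, adjusted p = 0.00334) and those of siBard1 one of −0.43 (SE 0.12, adjusted p = 0.0328). The calls in siWdr5 and siBard1 were kept in 8 and 9 of 18 alternatives and each was lost without either nt control library. *Trp53inp1*, a stress-induced regulator of autophagy and cell death, measured 157 and 145 CPM in the nt control and 181 and 241 in siBrca1. It rose in siBrca1 by 0.47 (SE 0.13, adjusted p = 0.00992), and the call was lost without nt control replicate 2 or siBrca1 replicate 2, without a trend and with quantile normalization (adjusted p up to 0.0937). The remaining knockdown libraries of day 3 lay between 178 and 205 CPM. *Zmat3* was at 346 and 344 CPM in the nt control, and its 6 knockdown libraries, at 373 to 403 CPM, all lay above both controls. With centring on the median gene *Zmat3* passed in siWdr5. The 6 knockdown libraries of *Rrm2b*, at 10.2 to 12.3 CPM, all lay below both controls, at 12.4 and 12.6 CPM.

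Of the membrane and signalling genes, *Epha2* rose and *Perp*, *Phlda3* and *Cd82* did not pass the test in any knockdown at day 3. *Epha2*, which encodes an ephrin receptor tyrosine kinase, stood at 55.3 and 64.1 CPM in the nt control, 88.5 and 95.4 in siWdr5, 128 and 136 in siBrca1 and 94.7 and 86.4 in siBard1. The siBrca1 libraries were the highest of the day and all 6 knockdown libraries were above the controls. Log2 fold changes were 0.63 in siWdr5 (SE 0.11, adjusted p = 0.000833), 1.14 in siBrca1 (SE 0.11, adjusted p = 6.19e-06) and 0.60 in siBard1 (SE 0.11, adjusted p = 0.00345), the last lost without nt control replicate 1 (adjusted p = 0.0856). *Perp*, a gene of cell adhesion complexes and of p53-dependent death, was at 93.4 and 97 CPM in the nt control and between 87.6 and 107 CPM in the knockdowns. *Cd82*, a tetraspanin gene, had its highest library in siBrca1 replicate 2 at 11.5 CPM, where the nt control had 6.67 and 7.78 (log2 fold change in siBrca1 0.43, SE 0.20, adjusted p = 0.0887).

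Within the BCL2 family, the pro-apoptotic genes *Pmaip1* and *Bcl2l11* and the anti-apoptotic gene *Bcl2l1* rose in some knockdowns at day 3. *Bbc3*, *Bax*, *Bak1*, *Bid*, *Mcl1* and *Bcl2* passed in none. *Pmaip1*, which encodes the BH3-only protein NOXA, stood at 29.8 and 29.5 CPM in the nt control, 35.6 and 34.1 in siWdr5, 55.4 and 68.8 in siBrca1 and 46.5 and 45.5 in siBard1. The siBrca1 and siBard1 libraries were well above the controls, and the rise was 1.06 on the log2 scale in siBrca1 (SE 0.12, adjusted p = 2.20e-05) and 0.64 in siBard1 (SE 0.12, adjusted p = 0.00486, lost without nt control replicate 1 with adjusted p = 0.0549). In siWdr5 the difference was 0.23 (SE 0.12, adjusted p = 0.153). *Bcl2l11*, which encodes the BH3-only protein BIM, showed another order, with 26.5 and 25.6 CPM in the nt control, 42.5 and 43.7 in siWdr5, 28.6 and 38.2 in siBrca1 and 24.4 and 25.2 in siBard1. It rose in siWdr5 (0.73, SE 0.14, adjusted p = 0.00140), whereas siBrca1 (0.34, adjusted p = 0.0556) and siBard1 (−0.07) did not pass. *Bbc3*, which encodes PUMA, a strong p53 target in many cells, was at 24.9 and 26.4 CPM in the nt control and between 18.4 and 25.1 CPM in the 6 knockdown libraries, and its log2 fold changes of −0.34, −0.25 and −0.30 did not pass. *Bax*, the pore-forming effector, was at 102 and 110 CPM in the nt control and 86.9 to 102 CPM in the knockdowns. *Bak1*, the second effector, lay between 44.3 and 57.7 CPM over the 8 libraries of day 3. *Bid*, which links death receptors to mitochondria, was at 26.3 and 25.3 CPM in the nt control. Its 6 knockdown libraries, at 28.1 to 34.4 CPM, all lay above both controls, although no comparison passed. With centring on the median gene *Bid* passed in siWdr5 and siBrca1.

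The anti-apoptotic *Bcl2l1*, which encodes BCL-XL, was at 76.8 and 77.8 CPM in the nt control, 103 and 103 in siWdr5, 123 and 139 in siBrca1 and 99.9 and 88.8 in siBard1. No knockdown library reached down to the controls. Its rise was 0.42 in siWdr5 (SE 0.11, adjusted p = 0.00810), lost without any 1 of the nt control or siWdr5 libraries (adjusted p up to 0.0728), and 0.76 in siBrca1 (SE 0.11, adjusted p = 8.56e-05), while 0.29 in siBard1 did not pass (adjusted p = 0.0840). *Mcl1* and *Bcl2*, its anti-apoptotic relatives, lay at 167 to 208 CPM and 14 to 20.8 CPM over the 8 libraries of day 3, and neither passed in a knockdown.

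**Figure D3:**
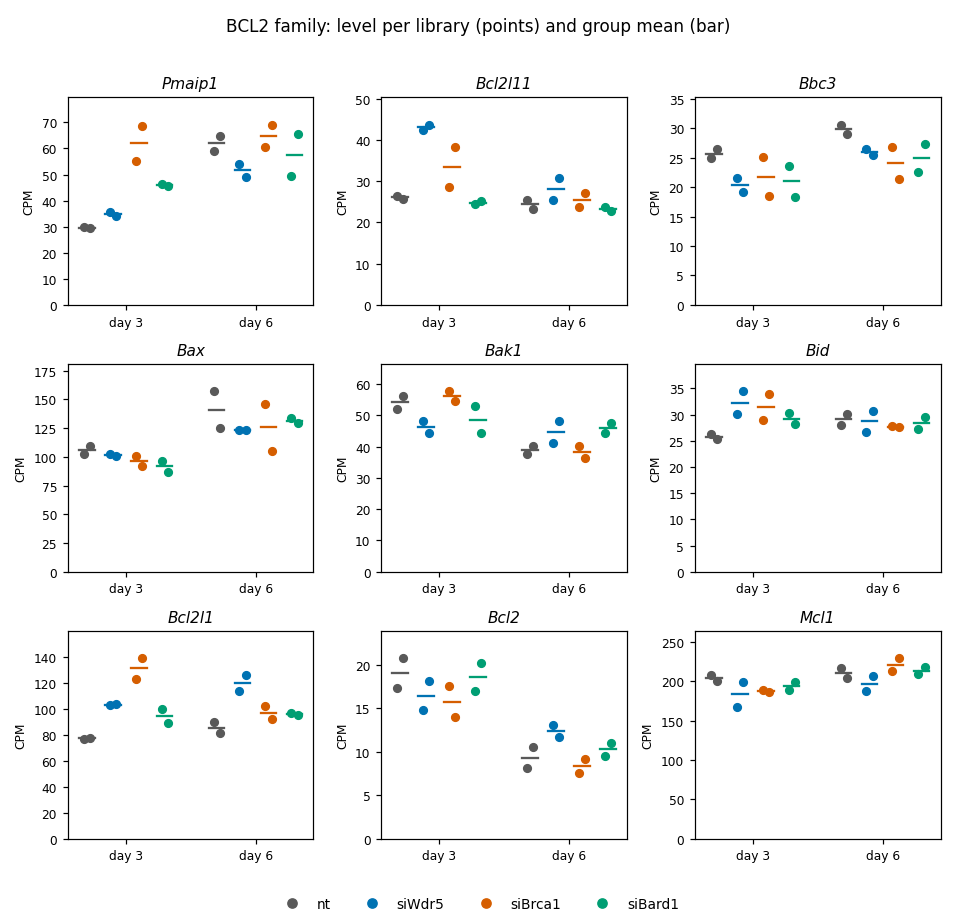
CPM (vertical axes, from 0) of the 9 BCL2 family genes in each of the 16 libraries, as points, with group means as bars, by day and siRNA (colour). Of the day 3 groups, *Pmaip1* is highest in siBrca1 (55.4 and 68.8 CPM) and *Bcl2l11* in siWdr5 (42.5 and 43.7), and by day 6 *Pmaip1* of the nt control has reached 59.2 and 64.8 CPM and *Bcl2* has dropped to 8.13 and 10.5.

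The death receptor genes *Fas* and *Tnfrsf10b* rose at day 3. *Fas* was at 15.6 and 14.1 CPM in the nt control, 22.6 and 28.5 in siWdr5, 26.9 and 29.4 in siBrca1 and 27.3 and 27.5 in siBard1. All 6 knockdown libraries were above the controls, with log2 fold changes of 0.78 (SE 0.14, adjusted p = 0.00101), 0.93 (SE 0.14, adjusted p = 0.000156) and 0.89 (SE 0.14, adjusted p = 0.00153) in siWdr5, siBrca1 and siBard1. *Tnfrsf10b*, which encodes the mouse TRAIL receptor, measured 90.6 and 85.2 CPM in the nt control, 128 and 131 in siWdr5, 120 and 126 in siBrca1 and 112 and 97.2 in siBard1. It passed in siWdr5 (0.56, SE 0.11, adjusted p = 0.00134) and siBrca1 (0.49, SE 0.11, adjusted p = 0.00187) and not in siBard1 (0.25). The receptor gene *Eda2r*, the PIDDosome gene *Pidd1* and the initiator caspase gene *Casp8* passed in no comparison in the main setting. With centring on the median gene *Eda2r* passed in siWdr5 and siBard1, and *Pidd1* passed in siWdr5. *Eda2r* in siBard1 also passed with quantile normalization and with limma-voom on recovered reads. Of the apoptosome genes, *Apaf1* stood at 85.8 and 76.4 CPM in the nt control and 99.0 and 107 in siWdr5 (0.35, SE 0.11, adjusted p = 0.0215), a call lost without any 1 of these 4 libraries or without a trend (adjusted p up to 0.219). Its partner *Casp9* lay between 10.3 and 14.5 CPM over the 8 libraries of day 3.

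The knockdowns were also compared with each other at day 3, without the nt control. *Pmaip1*, *Plk3*, *Gdf15*, *Epha2* and *Bcl2l1* were higher in siBrca1 than in siWdr5, and *Trp53*, *Ei24* and *Apaf1* lower, 8 of 38 genes beside 15.7% of all genes tested (10.2% higher and 5.47% lower), and none of the 38 differed by more than 2-fold (4.73% of all genes). The difference in *Pmaip1* was 0.82 (SE 0.12, adjusted p = 0.000755) and passed in each of 18 alternatives. That in *Epha2* was 0.52 (SE 0.11, adjusted p = 0.00662), lost without siWdr5 replicate 1 (adjusted p = 0.0937), and the other differences ranged in size from 0.34 for *Bcl2l1* to 0.77 for *Plk3*. Without single libraries the count ran from 1 (siWdr5 replicate 1 left out) through 2 (siWdr5 replicate 2), 3 (siBrca1 replicate 2) and 4 (either nt control library) to 15 (siBrca1 replicate 1), and centring on the median gene gave 3 higher and 5 lower. Between siBrca1 and siBard1, 9 genes passed, 1 of them with more than a 2-fold difference, beside 21.4% and 3.01% of all genes (13.1% higher and 8.33% lower). *Btg2*, *Bcl2l11*, *Pmaip1*, *Bcl2l1*, *Epha2*, *Plk3* and *Gdf15* were higher in siBrca1, by 0.33 to 1.04, and *Ckap2* (−0.90) and *Ei24* (−0.46) were lower. None passed when siBard1 replicate 2 was left out or when the moderation had no trend (0 in both; 16 at an unadjusted p under 0.05 with all libraries), 5 did without siBrca1 replicate 2 and 15 without siBrca1 replicate 1, and quantile normalization gave 5 higher and 6 lower. Between siWdr5 and siBard1 2 genes passed, none with more than a 2-fold difference, beside 8.63% and 2.05% of all genes (4.85% higher and 3.78% lower). *Bcl2l11* was higher in siWdr5 by 0.80 (SE 0.14, adjusted p = 0.00377) and *Mdm4* was lower (−0.62, SE 0.13, adjusted p = 0.0108). Leaving out either siWdr5 library ended both calls, siBard1 replicate 2 that of *Mdm4*, and without either siBrca1 library 7 genes passed.

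Other genes of the pathway were read from lists chosen by role. Of 23 further p53 targets tested, 10 were higher and 1 lower in siWdr5 at day 3, 8 and 4 in siBrca1 and 3 and 0 in siBard1, with a median log2 fold change of 0.32, 0.28 and 0.12. Of all genes tested, 18.3% were higher and 16.8% lower in siWdr5, 25.4% and 21.8% in siBrca1 and 8.67% and 5.87% in siBard1, and these shares are the background for each of the lists that follow. *Thbs1*, the matrix protein gene thrombospondin 1, rose by 1.65 in siWdr5 and 1.96 in siBrca1, and *Rprm*, a G2 arrest gene, by 1.16 in siBard1 from 2.71 and 2.7 CPM. *Cdkn1a* rose in siBrca1 (0.63, adjusted p = 0.000363) and did not pass at 0.22 in siWdr5 and 0.29 in siBard1. The siWdr5 libraries, at 480 and 511 CPM, and those of siBard1, at 558 and 487, nonetheless lay above both controls, at 418 and 433. Among 18 upstream regulators tested, 4 were higher and 6 lower in siWdr5, 2 and 7 in siBrca1 and none in siBard1 (limma, 5 at an unadjusted p under 0.05). *Chek1*, the checkpoint kinase gene, fell by 1.10 in siWdr5 and by 1.66 in siBrca1, and the p53 relative *Trp63* rose by 1.76 in siWdr5 from 1.32 and 1.39 to 4.61 and 4.58 CPM. Of 27 further apoptosis genes tested, 4 were higher and 5 lower in siWdr5, 4 and 6 in siBrca1 and 1 and 2 in siBard1. *Birc5*, the survivin gene, which is also a mitotic gene, fell by 1.53 in siBrca1 and *Dffb*, an apoptotic nuclease gene, by 1.02. The BH3-only gene *Hrk* fell by 1.74 in siWdr5 and by 2.10 in siBard1, from only 1.52 and 1.96 CPM in the nt control.

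At day 6 fewer of the 38 genes passed the test against the nt control of that day, and in siBrca1 and siBard1 none did. None of the 3 targeted transcripts passed as lower in any knockdown at day 6. *Wdr5* in siWdr5, at 85.5 and 72.4 CPM, lay below the nt control of that day, at 91.8 and 98.1. *Brca1* in siBrca1 and *Bard1* in siBard1 overlapped with the nt control. The part of these target levels in the day 6 results was not tested. In siWdr5, 11 of 38 genes passed, 9 higher and 2 lower, or 28.9% beside 21.8% of all genes tested (16.1% higher and 5.70% lower), and none exceeded a 2-fold change (4.83% of all genes). *Trp53* stood at 89.5 and 85.2 CPM in the nt control of day 6 and at 125 and 141 CPM in siWdr5 (0.60, SE 0.12, adjusted p = 0.00991). *Epha2* was at 65.9 and 59.0 CPM in the nt control and 99.6 and 107 in siWdr5 (0.72, SE 0.15, adjusted p = 0.0103). Neither pair of groups overlapped. *Plk2* (0.57), *Tnfrsf10b* (0.54), *Bcl2l1* (0.49), *Btg2* (0.47), *Zmat3* (0.47), *Gtse1* (0.43) and *Aen* (0.37) were also higher, and *Mdm4* (−0.49) and *Plk3* (−0.58) lower. *Mdm4* lay below both controls, with 118 and 134 CPM in the nt control and 92.3 and 86.6 in siWdr5. Of these calls none held in each of 18 alternatives. Without nt control replicate 1 the count was 1, and it was 0 without nt control replicate 2 or without siWdr5 replicate 2 and 7 without siWdr5 replicate 1, while quantile normalization gave 2 higher and 4 lower and centring on the median gene 7 higher and 3 lower. Beside these values, fibroblast markers summed to 8954 to 12279 CPM in siWdr5 at day 6 and 4631 to 4821 in the nt control (5 of 7 higher), and epithelial markers to 355 to 476 against 549 to 739 CPM (3 of 5 lower). Their part in the results was not tested. In siBrca1 at day 6 no gene passed (limma, 0% of all genes, 3 of the 38 at an unadjusted p under 0.05, and 0 with limma-voom on recovered reads), and the 38 log2 fold changes lay between −0.32 for *Bbc3* and 0.30 for *Plk2*. In siBard1 none passed either (limma, 0.0784% of all genes, 3 at an unadjusted p under 0.05, and 0 with limma-voom). Its largest differences were −0.51 for *Trp53inp1* and 0.45 for *Trp53*, which was at 125 and 114 CPM.

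Whether the effect of a knockdown differed between the days was tested as an interaction. In siBrca1 it did for 9 genes, 23.7% of the 38 beside 20.5% of all genes tested, with 2 positive and 7 negative differences (10.3% and 10.3% of all genes) and 3 above 2-fold (8.60%). The change against the nt control was less positive at day 6 than at day 3, or turned negative, for *Gdf15*, *Plk3*, *Pmaip1*, *Epha2*, *Mdm2*, *Btg2* and *Bcl2l1*, and it was shifted upward for *Trp53* and *Ckap2*. None of these 9 genes passed in siBrca1 at day 6. *Gdf15* had a log2 fold change of 1.67 at day 3 and −0.08 at day 6, when the siBrca1 libraries stood at 22.9 and 15.4 CPM and the nt control at 23.6 and 16.6. *Pmaip1* went from 1.06 to 0.06, with 60.6 and 69.2 CPM in siBrca1 and 59.2 and 64.8 in the nt control at day 6. In both genes the siBrca1 levels of day 6 overlapped with the nt control of that day, which itself was higher than the nt control of day 3. Of the 9 genes, *Ckap2*, *Epha2*, *Gdf15*, *Plk3* and *Pmaip1* (5 genes) passed in each of 24 alternatives, while the other 4 were lost without siBrca1 replicate 2 of day 3. The count was 5 without that library and 6 without nt control replicate 1 of day 3. In siWdr5 no gene passed the interaction (limma, 4.43% of all genes, 12 at an unadjusted p under 0.05, 0 with limma-voom), and in siBard1 none did (0.0499% of all genes, 11 at an unadjusted p under 0.05, 0 with limma-voom). Leaving out either siBrca1 library of day 3 gave 5 genes for siWdr5 and 3 for siBard1, and leaving out either siBrca1 library of day 6 gave 2 for each. *Trp53* in these interactions had differences of 0.65 (adjusted p = 0.0522) and 0.75 (adjusted p = 0.0692).

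**Figure D4:**
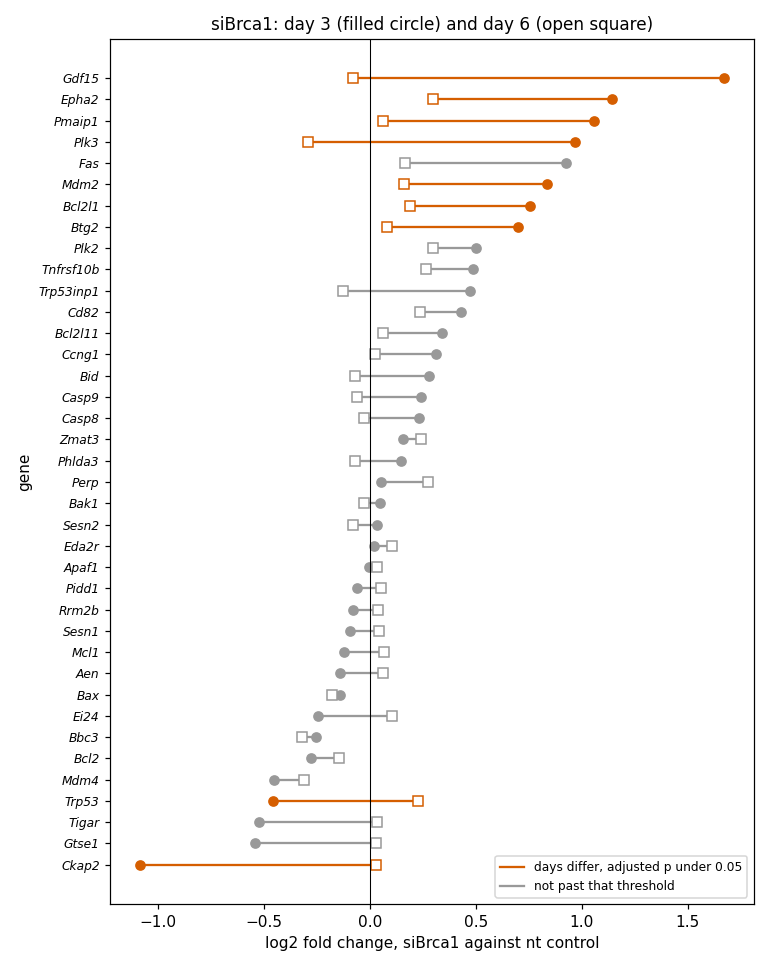
Log2 fold change of siBrca1 against the nt control (horizontal axis) for each of the 38 genes (vertical axis, ordered by the day 3 value), with day 3 as filled circles and day 6 as open squares. Orange marks the 9 genes whose change differed between the days in limma, led by *Gdf15* (1.67 at day 3 and −0.08 at day 6), and the day 6 values lie between −0.32 and 0.30.

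The nt control libraries of both days show how these genes moved during reprogramming without a knockdown. *Trp53*, the anti-apoptotic *Bcl2* and the effector gene *Bak1* fell, while *Trp53inp1*, *Plk3*, *Pmaip1* and *Gdf15* rose more than 2-fold. In all, 15 of 38 genes passed, 7 higher and 8 lower, or 39.5% beside 46.2% of all genes tested (19.0% higher and 27.1% lower), and 5 did so with a change above 2-fold (beside 11.8%). The median log2 change of the 38 genes was 0.07 and that of all genes −0.07. Centring on the median gene gave 10 higher and 6 lower and quantile normalization 12 and 5.

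*Trp53* fell from 161 and 164 CPM to 89.5 and 85.2 (−0.89, SE 0.13, adjusted p = 5.71e-05), and *Bcl2* from 17.4 and 20.8 to 8.13 and 10.5 (−1.04, SE 0.19, adjusted p = 0.000339). *Bak1* went from 52.2 and 56.2 to 37.6 and 40.3 CPM (−0.48, adjusted p = 0.00461, lost without nt control replicate 2 of day 3 with adjusted p = 0.0508). In each of these 3 genes the days did not overlap. *Gtse1* (−0.64), *Zmat3* (−0.46), *Tigar* (−0.37), *Apaf1* (−0.33) and *Aen* (−0.28) were lower as well. The last 3 calls were each lost with quantile normalization and, among other libraries, without nt control replicate 1 of day 3 (adjusted p up to 0.211, 0.364 and 0.826). The summed level of the 10 genes of the G2 and M phases went from 1428 to 1437 CPM at day 3 to 753 to 868 CPM at day 6, and its part in the fall of *Gtse1* was not tested.

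*Trp53inp1* rose from 157 and 145 CPM to 371 and 374 (1.31, SE 0.18, adjusted p = 3.37e-05). *Plk3* went from 10.0 and 10.1 to 25.1 and 23.4 CPM (1.27, SE 0.19, adjusted p = 8.64e-05), and *Pmaip1* from 29.8 and 29.5 to 59.2 and 64.8 CPM (1.06, SE 0.14, adjusted p = 2.60e-05). *Gdf15* was at 11 and 8.52 CPM at day 3 and 23.6 and 16.6 at day 6 (1.04, SE 0.26, adjusted p = 0.00411). Day 6 lay above day 3 in every library of these 4 genes, although the call for *Gdf15* was lost without nt control replicate 2 of day 3 or replicate 1 of day 6 (adjusted p up to 0.0646). *Bax*, from 102 and 110 to 157 and 125 CPM (0.40, adjusted p = 0.0266), *Perp* (0.39, adjusted p = 0.00350) and *Mdm2*, from 193 and 182 to 246 and 218 CPM (0.30, adjusted p = 0.0339), were higher by less. The calls for *Bax* and *Mdm2* were lost without either nt control library of day 3, without replicate 1 of day 6 and without a trend (adjusted p up to 0.271 and 0.234). Of the 15 genes, 8 passed in each of 24 alternatives (*Bcl2*, *Gtse1*, *Perp*, *Plk3*, *Pmaip1*, *Trp53*, *Trp53inp1* and *Zmat3*), and the count was 9 without nt control replicate 2 of day 3 or replicate 1 of day 6 and 10 without replicate 1 of day 3.

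**Figure D5:**
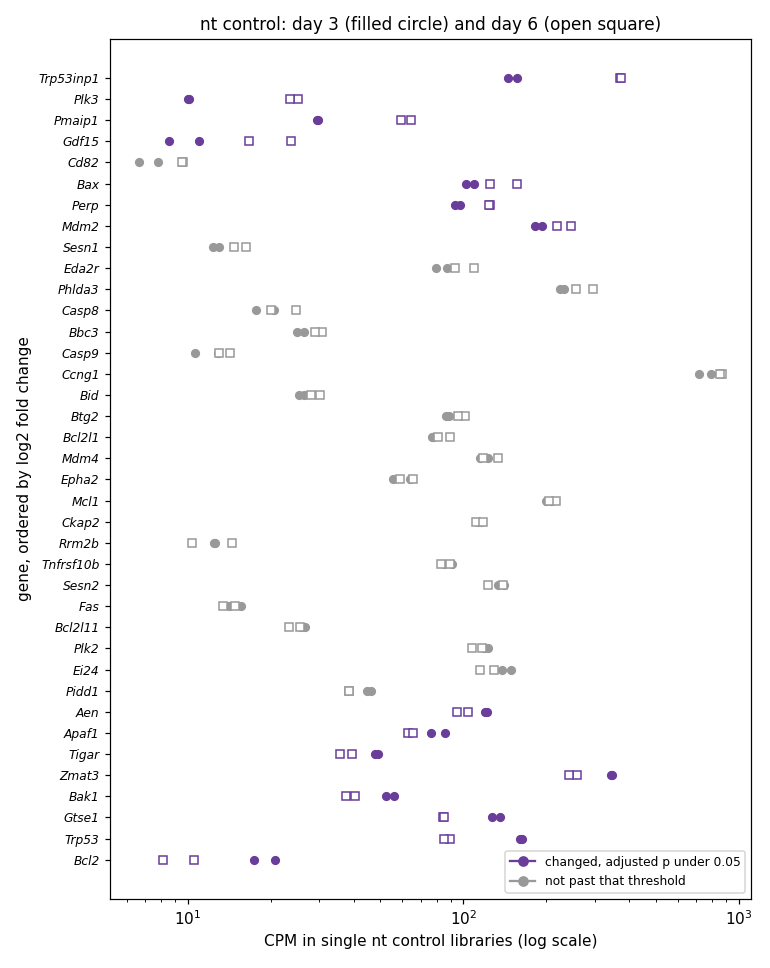
CPM of each of the 38 genes in the single nt control libraries (horizontal axis, log scale) at day 3 (filled circles) and day 6 (open squares), ordered by log2 fold change (vertical axis), with genes that changed at an adjusted p under 0.05 in purple. *Trp53inp1*, *Plk3*, *Pmaip1* and *Gdf15* at the top more than doubled on average, and *Bcl2*, *Trp53*, *Gtse1* and *Bak1* at the bottom fell.

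Over all 13 comparisons 12 of the 38 genes never passed the test in its main setting. They were *Bbc3*, *Bid*, *Casp8*, *Casp9*, *Cd82*, *Eda2r*, *Mcl1*, *Phlda3*, *Pidd1*, *Rrm2b*, *Sesn1* and *Sesn2*. Among them are the BH3-only genes of PUMA and BID and the initiator caspase genes *Casp8* and *Casp9*. Also among them are *Sesn1* and *Sesn2*, which encode sestrins, stress proteins that restrain mTORC1. Their log2 fold changes in the day 3 knockdowns lay between −0.34 for *Bbc3* in siWdr5 (SE 0.17) and 0.43 for *Cd82* in siBrca1 (SE 0.20). A test that was not passed does not show that the levels were equal. Some of these 12 genes passed in alternative settings, as *Bid*, *Eda2r* and *Pidd1* did in siWdr5 at day 3 with centring on the median gene. The share of all genes tested that never passed was not computed. The count of 12 therefore has no background beside it and is not read as a result about these genes.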

How the data were processed

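Bulk RNA sequencing measured total RNA of 16 libraries, 2 per group from independent experiments. The authors depleted ribosomal RNA (Kapa RNA Hyper Prep with Ribo Erase), and per the labels' processing notes STAR 2.5.2b, edgeR 3.20.9 and the build mm10 were used. The deposited values are log2 CPM per gene, scaled between libraries and raised by a small prior; the read counter, strand setting, annotation and low-count filter are not given in the sources used here. The authors' comparisons were made with DESeq2 on read counts, not used here.

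The log2 values were raised to CPM for printing. All values (100%) were whole reads within 0.01 read, which gave the library sizes. Tests covered the 14028 of 18990 genes whose log2 CPM averaged 0 or more over the libraries, and were made with limma 3.58.1 in R 4.3.3, moderated with a trend, 1 mean per group, the 8 libraries of a day together (all 16 for the nt course and the interactions), two-sided, with Benjamini-Hochberg adjustment over all genes tested and a threshold of 0.05. Because the table holds log2 values, limma took the place of a count test, and limma-voom on the recovered reads was an alternative. P-values measure the spread between these libraries. The 38 genes, the lists and the rule for named genes (genes past the threshold at day 3 or in the nt course, the regulators, and listed genes past it with a change above 2-fold) were chosen with earlier results of these data known. Also tried were a filter at 2 or none, no trend, a pseudocount of 1 CPM, centring on the median gene, quantile normalization, a replicate block, 4 or 16 libraries in the model and leaving out each library. Steps were tested on simulated data. Exon lengths came from GENCODE vM21, where all 38 genes matched, and start sites from RefSeq (GRCm38.p6), where 32 did; *Trp53inp1*, *Rrm2b*, *Zmat3*, *Perp*, *Pmaip1* and *Tnfrsf10b* had no window.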

Additional observations from a re-analysis of the deposited data

Results flagged for a closer look

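For 9 genes the effect of siBrca1 differed between day 3 and day 6 by the test of the interaction in limma over all 16 libraries. With the day 3 change subtracted from that of day 6, the difference was −1.75 for *Gdf15*, −1.26 for *Plk3*, −0.99 for *Pmaip1*, −0.85 for *Epha2*, −0.68 for *Mdm2*, −0.62 for *Btg2* and −0.57 for *Bcl2l1* on the log2 scale. It was 1.12 for *Ckap2* and 0.68 for *Trp53*. The adjusted p-values ranged from 0.00439 for *Pmaip1* to 0.0219 for *Btg2*. *Brca1* itself stood at 37.5 and 19.4 CPM in siBrca1 at day 3 and at 35.9 and 40.1 CPM at day 6, when the nt control had 33.2 and 42.6. The part of the *Brca1* level in these differences was not tested.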

How the results depend on the processing

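Of the single-gene calls recomputed, none changed sign. The balance of higher and lower calls did turn with the scaling: quantile normalization gave 2 higher and 4 lower in siWdr5 at day 6 (9 and 2 as reported), 5 and 6 in siBrca1 against siBard1 (7 and 2), 1 and 2 in siWdr5 against siBard1 (1 and 1) and 12 and 5 in the nt course (7 and 8), and centring on the median gene gave 3 and 5 in siBrca1 against siWdr5 (5 and 3) and 10 and 6 in the nt course. Requiring a change above 2-fold left 0 of the 14 genes in siWdr5 at day 3, 4 of 17 in siBrca1, 0 of 6 in siBard1, 0 of 11 in siWdr5 at day 6, 5 of 15 in the nt course, 3 of 9 in the siBrca1 interaction, and 0, 1 and 0 in siBrca1 against siWdr5, siBrca1 against siBard1 and siWdr5 against siBard1. Without a trend the counts were 3 in siBard1 at day 3, 4 in siWdr5 at day 6, and 2, 0 and 1 between the knockdowns in the same order. With no filter they were 3 in siBrca1 against siWdr5 and 1 in siWdr5 against siBard1. A model of the 4 compared libraries gave 22 in siWdr5 and 12 in siBard1 at day 3, and 2, 3 and 6 between the knockdowns. Quantile normalization gave 11 in siBard1 at day 3, 6 in siWdr5 at day 6, and 1 each in the siWdr5 and siBard1 interactions. Centring on the median gene gave 6 in siWdr5 against siBard1 and 1 in the siWdr5 interaction, where it moved the median of all genes from 0.12 to −0.02; a mean log2 CPM of at least 2 also gave 1 there. Replicate numbers were not taken to pair the libraries, since the correlation of deviations between same-numbered libraries ran from −0.09 to 0.07 at day 3 and from −0.07 to 0.26 at day 6. With the replicate block the counts were 15, 17 and 8 at day 3 and 12 in siWdr5 at day 6, and the siWdr5 interaction rose from 0 to 2 (*Trp53* and *Trp53inp1*). The cause of these shifts was not tested.

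Leaving out each library in turn gave 8 to 19 genes in siWdr5, 13 to 23 in siBrca1 and 1 to 13 in siBard1 at day 3, 0 to 12 in siWdr5 at day 6, 9 to 16 in the nt course, 0 to 5, 5 to 12 and 0 to 3 in the interactions of siWdr5, siBrca1 and siBard1, 1 to 15 in siBrca1 against siWdr5, 0 to 15 in siBrca1 against siBard1 and 0 to 7 in siWdr5 against siBard1. A group left with 1 library is assumed there to vary like the others. For single genes, 1062 of 1224 recomputed values stayed on the same side of the threshold and 162 no longer passed.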
